A study of Mus musculus with 2 samples.

Results

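The 9 genes described here encode extracellular proteases that cut vessel matrix and the inhibitors that hold them in check. They are the matrix metalloproteinases (MMPs) Mmp2, Mmp9 and Mmp14, the ADAMTS proteases Adamts1, Adamts4 and Adamts9, and the tissue inhibitors of metalloproteinases (TIMPs) Timp1, Timp2 and Timp3. They were taken by gene symbol from a table of 53465 mouse genes, where each had 1 row. Endothelial cells had been isolated from mice of the C57Bl/6 strain carrying tie2-cre, a recombinase gene under the Tie2 promoter, which is active in endothelium and also in many blood cells. One group had been treated with GFP, the control, and the other with NeuroD1, a transcription factor of neurons. Both groups share the strain and the Cre gene. For each library the labels give cells of 3 mice and a lysate of 10000 cells, without saying whether the mice differed between the libraries. DRUG-seq primers, which capture transcripts at the 3' end, tagged the RNA. Each group is 1 library, so that library and treatment cannot be told apart. Differences therefore lack any check by replicates, and p-values are not given. The labels used here give neither age, vector, dose, time nor whether the animals had a stroke, which is the subject of the series title.

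MMPs and ADAMTS proteases carry a zinc ion in the active site and are made as inactive precursors. MMPs cut collagens, laminins and other proteins of the basement membrane around brain capillaries, and Mmp9 is known for its part in opening the blood-brain barrier after ischemia. ADAMTS proteases mainly cut large proteoglycans such as versican and aggrecan. TIMPs block MMPs by placing the first residue of the mature inhibitor on the zinc ion, and Timp3 also blocks ADAMTS proteases.

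The short coding stretches below show both sides of this system, the catalytic zinc site of the proteases and the part of the TIMPs that enters it. They were read from GENCODE M21 transcripts of the GRCm38 build, 5' to 3'. Capitals in the proteases mark the codons of the 3 zinc-binding histidines, of the catalytic glutamate and of the residue at position 8 of the stretch.
Mmp2: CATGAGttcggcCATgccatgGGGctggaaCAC
Mmp9: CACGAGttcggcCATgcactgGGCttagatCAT
Mmp14: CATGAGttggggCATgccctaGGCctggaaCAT
Adamts1: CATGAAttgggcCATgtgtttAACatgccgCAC
Adamts4: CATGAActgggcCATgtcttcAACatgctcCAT
Adamts9: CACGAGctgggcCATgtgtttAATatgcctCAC
Position 8 was a glycine codon (GGG or GGC) in the 3 MMPs and an asparagine codon (AAC or AAT) in the 3 ADAMTS proteases. The search allowed only glycine or asparagine at this position. Among 36 other MMP and ADAMTS genes, it found a stretch in 34, with glycine in 32 and asparagine in 2. These 2 were Adamts15 and Adamts20, and every other ADAMTS protease among the 34 had glycine. Asparagine here is therefore not a mark of the ADAMTS family. The 3 MMPs shared 25 to 27 of 33 bases pairwise, the 3 ADAMTS proteases 25 to 28, and an MMP with an ADAMTS protease 18 to 21. In Mmp9 the stretch lay in exon 8 (chr2:164951133-164951165, plus strand). In Adamts1 it was split between exons 3 and 4, within chr16:85799191-85799545 on the minus strand.

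In the TIMPs, capitals mark the codons of the cysteine that binds the zinc ion and of the 5 further residues that the 3 sequences have in common.
Timp1: TGTagcTGTgccCCAcccCACCCACAG
Timp2: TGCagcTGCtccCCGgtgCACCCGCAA
Timp3: TGCacaTGCtctCCCagcCATCCCCAG
These 27 bases were identical at 16 to 18 positions between any pair of TIMPs, although the marked residues, which the search required, are the same. The stretch began at codon 25 in Timp1 (chrX:20871111-20871137, exon 2), at codon 27 in Timp2 and at codon 24 in Timp3.

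Levels are FPKM, the reads of a gene scaled by its exon length and by a factor of its library, as deposited by the authors. Whole reads were recovered from these values for all 9 genes, and each interval below is a 95% interval that covers counting error only. The reads rounded from the table summed to 2109497 in GFP and 2088651 in NeuroD1. The deposited FPKM imply totals of 2208977 in GFP and 1950268 in NeuroD1, so the library factor is not the sum of these reads. Whole reads recovered for 51160 of the genes summed to 1180908 and 1086917. Of these recovered reads, 958867 and 852011 fell in genes below 1000 FPKM. Neurod1 stood at 0.664 FPKM in GFP against 182 FPKM in NeuroD1, in the direction the labels give. Of 12 endothelial markers, 11 reached 5 FPKM in one library or both, and 7 of the 12 were above 0 in log2 difference. The list summed to 140.5 and 148.7 FPKM, led by the junction protein Cldn5 at 33.9 and 31.5 FPKM and the VEGF receptor Flt1 at 22.9 and 21.3 FPKM. Intervals lay above 1 for 3 endothelial markers and below 1 for 0, and the 3, named after their values were seen, were Egfl7 (ratio 1.78), Vwf (1.34) and Erg (1.39). As a measure of background, 1514 chemoreceptor genes, which endothelium is not known to use, had a median of 1.54 FPKM in GFP and 1.40 FPKM in NeuroD1, and a 95th percentile of 4.39 and 4.79 FPKM.

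Against these values the matrix genes were low. The order that follows is per exon length, and with reads from the 3' end this division lowers long genes. In the GFP library 4 of the 9 stood below the 95th percentile of chemoreceptor genes (Mmp2, Adamts9, Timp1 and Timp2) and Timp1 was below their median. In the NeuroD1 library 8 of the 9 were below that percentile, all but Adamts1. Per length, Adamts1 led in both libraries, at 10.4 FPKM in GFP against 5.80 FPKM in NeuroD1. In reads it led in GFP with 122, while in NeuroD1 the longer Adamts9 led with 100 reads against 60. In GFP it exceeded the next gene, Adamts4, by a ratio of 1.81 (interval 1.32 to 2.51). Adamts4, Mmp9, Timp3 and Mmp14 followed between 5.74 and 4.86 FPKM, with no neighbouring pair apart by more than counting error. A step of 1.47 (interval 1.06 to 2.02) then separated Mmp14 from Adamts9 at 3.31 FPKM, and Timp2, Mmp2 and Timp1 came last. In reads that step turns, with 110 for Adamts9 and 64 for Mmp14. In NeuroD1 no gene was separated from its neighbour in the order, which ran from Adamts1 over Mmp14, Timp2, Adamts4, Timp3, Adamts9, Timp1 and Mmp9 to Mmp2. Mmp9 ranked 3 of 9 in GFP and 8 of 9 in NeuroD1.

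**Figure D1:**
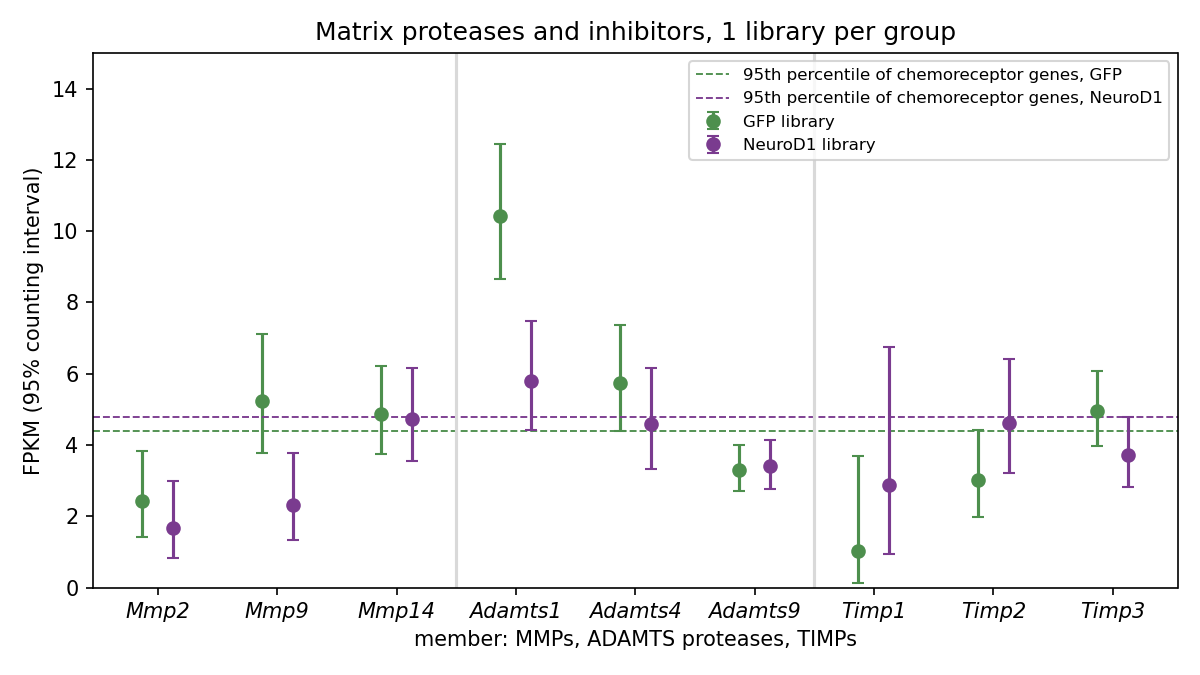
FPKM of the 9 genes in the GFP library (green) and the NeuroD1 library (purple), with bars for the exact 95% Poisson interval of the reads and dashed lines at the 95th percentile of chemoreceptor genes in each library. Adamts1 is highest in both libraries, at 10.4 and 5.80 FPKM, and the intervals of Adamts1 in the 2 libraries do not overlap.

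Between the libraries, none of the 9 genes passed the 2-fold threshold, and 2 proteases, Adamts1 and Mmp9, had a ratio whose interval lay below 1. The threshold was a difference of at least 1 in log2(FPKM + 1) among genes with at least 5 FPKM in one library or both (low genes change by less on this scale than in FPKM). The members that reached 5 FPKM were Mmp9, Adamts1 and Adamts4. Of 14679 genes that did so, 28.5% passed the threshold in either direction, as did 6.55% of 6408 protein-coding genes (3.25% higher and 3.31% lower). Of the 14790 protein-coding genes that held 20 reads or more over both libraries, 12.1% had an interval that excluded 1, with 6.22% below and 5.92% above. Among the 8 members with that many reads, 2 were below 1 and 0 above. Such a count is small, and the spread between the libraries was 1.76 times counting variance over these genes, so that intervals widened to that spread are given as well. Both genes also had a widened interval below 1, and no member had one above. Of the protein-coding genes, 4% (592 of 14790) had a widened interval that excluded 1, with 1.84% below and 2.16% above.

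Of the MMPs, Mmp9 differed between the libraries and the others did so by less than counting error. Mmp9 (ENSMUSG00000017737, chromosome 2, 164940780 to 164955850, plus strand) is a secreted gelatinase that cuts denatured collagen and type IV collagen of the basement membrane. It stood at 5.24 FPKM in GFP (interval 3.76 to 7.11) and 2.32 FPKM in NeuroD1 (interval 1.33 to 3.77). The values rest on 41 and 16 reads and were 2.26-fold lower in NeuroD1, a ratio of 0.442 (interval 0.232 to 0.805). Reads at the chemoreceptor median are given here and below as if they grew with exon length. Reads from the 3' end need not do so. At the chemoreceptor median, a gene of its exon length, 3539 bases, would hold 12.1 reads in GFP and 9.69 reads in NeuroD1. Mmp9 thus lay well above that level in GFP and near it in NeuroD1. The ratio ranked 365th from the lowest of 14790 protein-coding genes, and its interval widened to the spread between the libraries was 0.187 to 0.979. Widened by the mean of the variance ratio over genes, 2.09, it was 0.174 to 1.05 and included 1. By that widening 2.65% of protein-coding genes had an interval that excluded 1. On the log2(FPKM + 1) scale the difference was -0.91, short of the threshold.

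Mmp2, the other gelatinase, stood at 2.42 FPKM in GFP against 1.67 FPKM in NeuroD1, from 18 and 11 reads (ratio 0.692, interval 0.295 to 1.55). In NeuroD1 its 11 reads compare with 9.23 reads at the chemoreceptor median. Mmp14 is a membrane-bound MMP that activates the Mmp2 precursor at the cell surface with Timp2 as the adaptor. It was even between the libraries, at 4.86 and 4.73 FPKM from 64 and 55 reads (ratio 0.973, interval 0.666 to 1.42). These counts do not exclude a 1.42-fold rise or a fall to 0.666 of the GFP level. Mmp14 thus had the narrowest interval of the MMPs and the ratio closest to 1.

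Of the ADAMTS proteases, Adamts1 was lower in NeuroD1, while Adamts4 and Adamts9 had intervals that included 1. Adamts1 (ENSMUSG00000022893, chromosome 16, 85793827 to 85803113, minus strand) cuts versican and aggrecan and is known to restrain the growth of vessels. It stood at 10.4 FPKM in GFP (interval 8.65 to 12.4) and 5.80 FPKM in NeuroD1 (interval 4.43 to 7.47). The ratio of 0.557, a 1.80-fold lower level, rests on 122 and 60 reads (interval 0.402 to 0.765). It was below 1 by either widening, with intervals of 0.361 to 0.848 and 0.348 to 0.881. The chemoreceptor median corresponds to 18.1 and 14.5 reads for a gene of this length, 5302 bases, so that both libraries held several times as many. In rank, 6.69% of the 14790 protein-coding genes had a ratio as low or lower. The difference on the log2(FPKM + 1) scale was -0.75.

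The 250 bases before the start of Adamts1 are shown because it had the firmest difference of the 9 genes and NeuroD1 is a DNA-binding factor. They are given 5' to 3' on the minus strand (chr16:85803114-85803363, RefSeq promoter, GRCm38.p6), with capitals for the single match among the motifs searched, a TATA box (TATAAA).
Adamts1 promoter: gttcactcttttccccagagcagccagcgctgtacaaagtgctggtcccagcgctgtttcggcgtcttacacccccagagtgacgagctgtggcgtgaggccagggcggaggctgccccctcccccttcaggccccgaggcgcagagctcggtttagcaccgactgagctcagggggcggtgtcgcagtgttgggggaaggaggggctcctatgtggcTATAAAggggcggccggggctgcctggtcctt
The searched letters were TATAAA on the gene's strand and, on both strands, TGANTCA (AP-1), CAGATG (an E-box bound by NEUROD1) and CAGCTG (another E-box). No motif contains another. Of 32851 RefSeq promoters, 7.59% held TATAAA in the same window, 6.75% TGANTCA, 14.4% CAGATG and 13% CAGCTG. The table had promoters of 6 members. CAGATG was found in that of Mmp14, and CAGCTG in those of Adamts9 and Timp2. A match is no binding site, and a missing match says nothing about NEUROD1.

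Adamts4, a protease of aggrecan and brevican, stood at 5.74 FPKM in GFP against 4.58 FPKM in NeuroD1, from 61 and 43 reads (ratio 0.798, interval 0.528 to 1.20). Adamts9, which cuts versican, had the reads to show a modest difference, 110 and 100, and stood at 3.31 and 3.41 FPKM (ratio 1.03, interval 0.777 to 1.36). It is the longest of the 9 genes, with 15048 bases of exons. At the chemoreceptor median that length would hold 51.3 and 41.2 reads. A total of 1381 of its exon bases lie in exons of A730049H05Rik and 424 in exons of Gm15737, both on the opposite strand. The sources used here do not say whether reads were counted by strand, so reads of these partners cannot be told apart.

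The TIMPs went both ways, each with an interval that included 1 under the deposited scaling. Timp3 binds the matrix and blocks ADAMTS and ADAM proteases as well as MMPs. It stood at 4.95 FPKM in GFP against 3.71 FPKM in NeuroD1, from 89 and 59 reads (ratio 0.751, interval 0.531 to 1.06). Scaled by the sum of reads in place of the deposited scaling, its interval was 0.473 to 0.941 and lay below 1. That scaling lowers the ratios of all genes. With it, 1834 protein-coding genes had an interval below 1 and 380 above, against 920 and 875 as deposited. Timp2, the adaptor for Mmp2 activation, stood at 3.02 and 4.61 FPKM from 26 and 35 reads (ratio 1.53, interval 0.892 to 2.64). Timp1, an inducible inhibitor that pairs with the Mmp9 precursor, stood at 1.02 and 2.89 FPKM. With 888 bases of exons it is the shortest of the 9 genes and had 2 and 5 reads, against 3.03 and 2.43 at the chemoreceptor median. Its ratio of 2.83 had an interval of 0.464 to 29.7, so that no direction was detectable at this depth.

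Timp1 and Timp3 are each nested in a synapsin gene of the opposite strand. All 888 exon bases of Timp1 lie in an intron of Syn1, and 1733 of the 8144 exon bases of Timp3 also lie in exons of Syn3. Syn1 had 2.33 FPKM in the GFP library against 3.73 in NeuroD1 (ratio 1.599, interval 0.824 to 3.17), and Syn3 at 3.21 and 2.76 FPKM (ratio 0.859, interval 0.614 to 1.20). The host gene was thus higher where Timp1 was and lower where Timp3 was, each within counting error, and the part of host reads in either value was not tested.

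**Figure D2:**
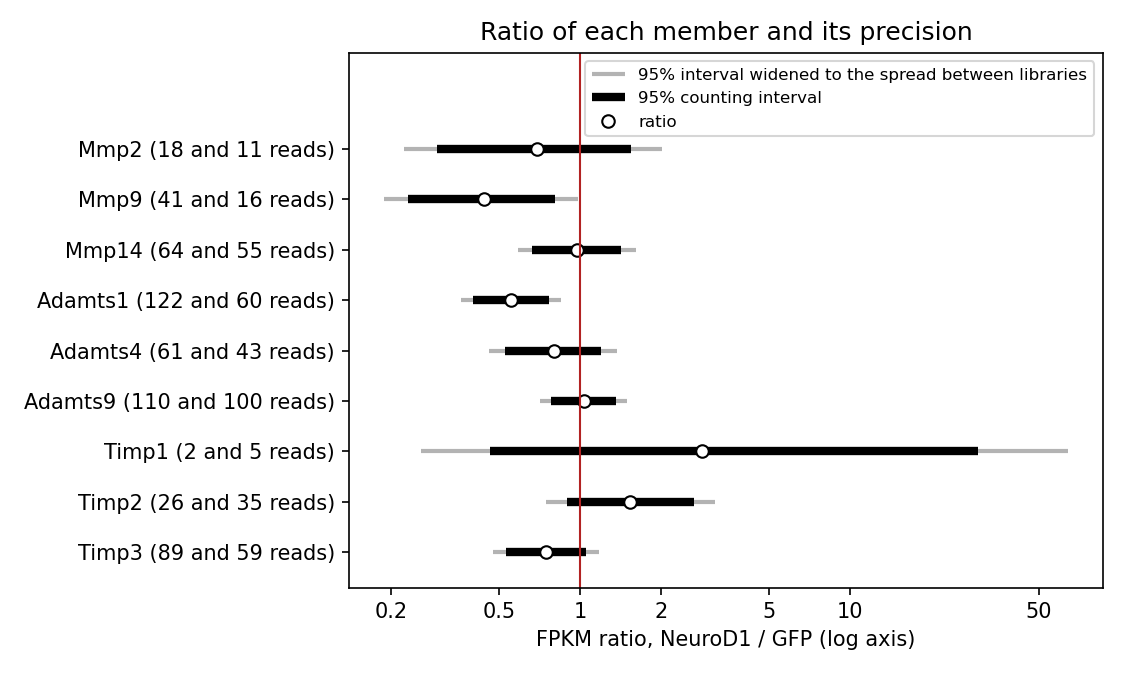
Ratio of FPKM in NeuroD1 to GFP for each of the 9 genes on a log axis, with the exact 95% counting interval (black), the interval widened to the spread between the libraries (grey) and the reads in GFP and NeuroD1 beside each name. Mmp9 (0.442) and Adamts1 (0.557) lie below 1 with both intervals, and Timp1, with 2 and 5 reads, has the widest interval.

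Summed per length, the 6 proteases were lower in NeuroD1 and the 3 TIMPs higher, though the TIMP sum turns on Timp1 and in reads the TIMPs were not higher, with 117 in GFP and 99 in NeuroD1. The proteases came to 32.0 FPKM in GFP and 22.5 FPKM in NeuroD1, with 5 of 6 below 0 in log2 difference. Adamts1 and Mmp9 made up most of that gap. The TIMPs came to 8.99 and 11.2 FPKM, and without Timp1 to 7.97 and 8.32 FPKM. Protease FPKM per TIMP FPKM was therefore 3.56 in GFP and 2.01 in NeuroD1, or 4.01 and 2.71 without Timp1. Counted in reads, which Timp1 barely enters, the quotient was 3.56 and 2.88. No interval was computed for the sums or quotients, and whether they differed by more than counting error was not tested. Over all 9 genes the median log2 difference was -0.27, with 3 above 0 and 6 below, beside a median of -0.007 over all protein-coding genes and of 0.03 over all genes with at least 5 FPKM.

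**Figure D3:**
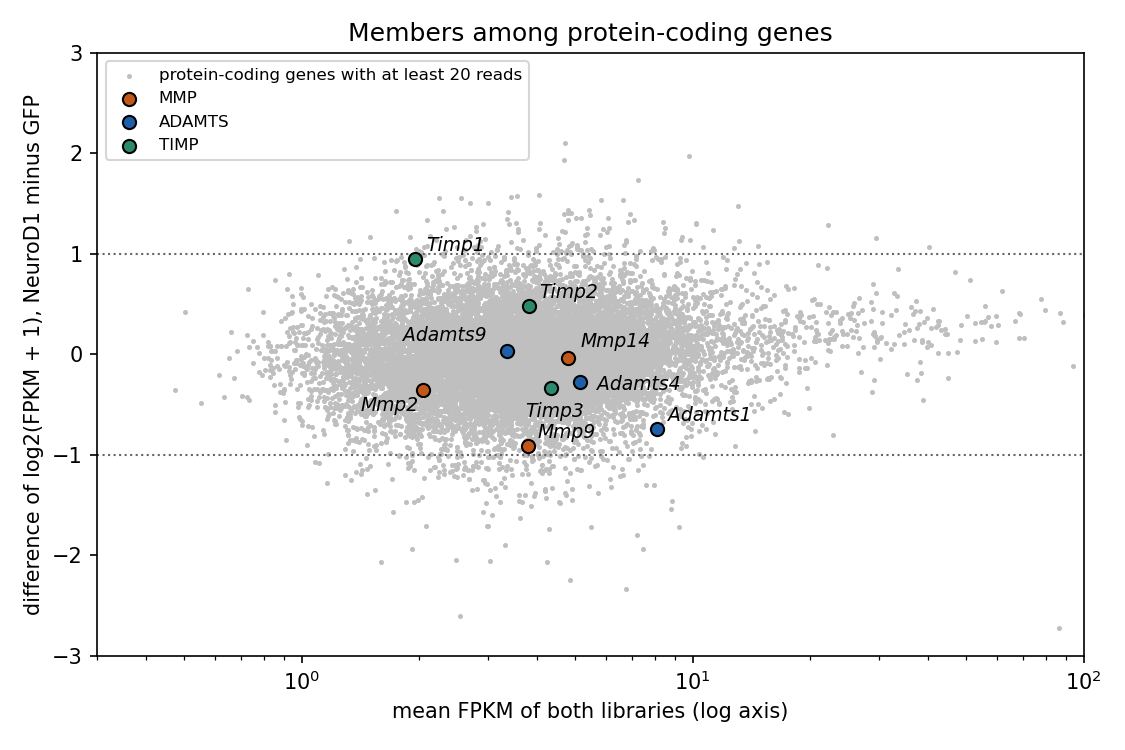
Difference of log2(FPKM + 1), NeuroD1 minus GFP, against mean FPKM on a log axis, for the 14790 protein-coding genes holding 20 reads or more (grey), of which 25 lie outside the axes, and for the MMPs (orange), ADAMTS proteases (blue) and TIMPs (green). The dotted lines mark the 2-fold threshold, which none of the 9 genes passes, and all 9 lie within the cloud of other genes.

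Genes around these proteases, in 8 lists of 82 genes, showed no 2-fold difference either. Of the 24 that reached 5 FPKM, 0 were 2-fold higher and 0 lower. Of the 67 with at least 20 reads, 3 had an interval above 1 and 6 below, to be read against the 12.1% of protein-coding genes with an interval on either side. The median log2 difference of the 82 genes was -0.12. Intervals of list and marker genes cover counting error only. They are not widened to the spread between the libraries, which was 1.76 times counting variance, and a bound near 1 may not hold under that widening.

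The 20 other MMPs had a median difference of -0.28, with 15 below 0, and 2 of the 11 with at least 20 reads had an interval below 1. These were the membrane-type Mmp24, at 4.25 FPKM (GFP) against 2.299 FPKM (NeuroD1, ratio 0.541, interval 0.305 to 0.929), and Mmp21, at 4.76 and 2.31 FPKM (ratio 0.485, interval 0.225 to 0.986). The most abundant of them, Mmp25, a membrane-anchored MMP of leukocytes, had 5.91 and 3.80 FPKM (its reads could not be recovered), and Mmp19 at 4.61 and 3.92 FPKM (interval 0.496 to 1.44). All 20 were below Adamts1 in GFP.

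The 16 other ADAMTS proteases had a median of -0.13, with 7 above 0 and 9 below. Adamts16 stood at 7.09 and 10.1 FPKM and had the single interval that excluded 1 (ratio 1.42, interval 1.09 to 1.85), on the higher side. Adamts10 stood at 7.14 and 6.11 FPKM, without recovered reads. Adamts8 stood at 2.85 and 1.56 FPKM (interval 0.267 to 1.07). The 5 ADAMTS-like proteins, which have no protease domain, had a median of -0.24 and no interval that excluded 1. Adamtsl4 stood at 6.04 and 4.76 FPKM, Adamtsl3 at 3.51 and 2.78 FPKM and Adamtsl5 at 4.602 and 4.67 FPKM.

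The 7 membrane ADAM sheddases, which release ectodomains of surface proteins, had a median of 0.19 with 5 above 0, and no interval excluded 1. Adam17, the sheddase of TNF, was the most abundant at 16.6 and 19.3 FPKM (ratio 1.16, interval 0.977 to 1.38). Adam10 stood at 7.28 and 8.98 FPKM (interval 0.898 to 1.70) and Adam19 at 1.97 and 2.67 FPKM. Both Adam17 and Adam10 stood above the 95th percentile of chemoreceptor genes in each library, unlike most of the 9 matrix genes.

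Among 8 activators and inducers of the proteases, 1 interval lay above 1 and 1 below. Bsg, the glycoprotein basigin that induces MMPs and is abundant on brain endothelium, stood at 86.8 and 114 FPKM (ratio 1.31, interval 1.14 to 1.52). Plat, the tissue plasminogen activator, stood at 11.3 and 8.22 FPKM (ratio 0.726, interval 0.559 to 0.939). Plaur, the urokinase receptor, stood at 7.96 and 5.29 FPKM (interval 0.397 to 1.09). The list's median was -0.07.

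Among 7 other inhibitors and clearance genes, Lrp1, the receptor that takes up protease and inhibitor complexes, stood at 4.45 and 3.24 FPKM and had an interval below 1 (ratio 0.729, interval 0.570 to 0.930). It was named for that after its values were seen. Timp4, the TIMP not among the 9, had 9 and 15 reads at 0.691 and 1.30 FPKM (interval 0.774 to 4.89), below the chemoreceptor median in both libraries. Reck, a membrane-anchored MMP inhibitor, was even at 6.06 and 5.79 FPKM (interval 0.653 to 1.39). The cystatin Cst3 stood at 12.2 and 16.2 FPKM (interval 0.822 to 2.17) and Serpine2 at 2.62 and 1.73 FPKM (interval 0.399 to 1.07).

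Of the substrates, 13 basement membrane genes had a median of 0.12, with 7 above 0 and 6 below. The laminin chain Lamb1, at 2.10 and 3.31 FPKM, had an interval above 1 (ratio 1.58, interval 1.06 to 2.35). The linker Nid2, at 6.12 and 3.77 FPKM (ratio 0.615, interval 0.403 to 0.925), and the laminin chain Lama5, at 5.45 and 4.01 FPKM (ratio 0.736, interval 0.557 to 0.968), had intervals below 1, and Lama5 was named for that after its values were seen. The matrix proteins Sparc, at 13.9 and 15.2 FPKM, and Fn1, at 7.01 and 8.47 FPKM (interval 0.981 to 1.49), were the most abundant. The 6 lectican and thrombospondin substrates of the ADAMTS proteases had a median of 0.11 and no interval that excluded 1. Bcan (brevican) stood at 4.57 and 3.15 FPKM, Ncan (neurocan) at 4.84 and 4.99 FPKM and Thbs1 at 1.34 and 1.94 FPKM.

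**Figure D4:**
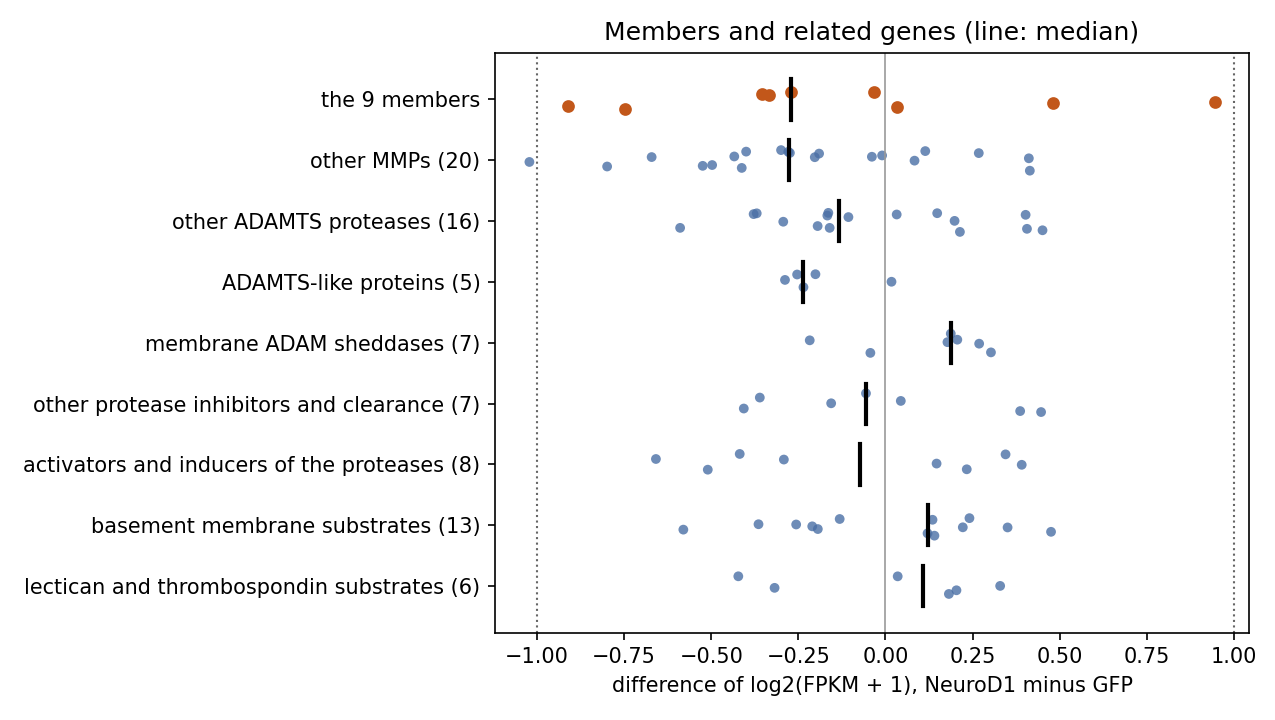
Difference of log2(FPKM + 1), NeuroD1 minus GFP, for each of the 9 genes (orange) and each gene of the 8 related lists (blue, number of genes in brackets), with a black line at the list's median and dotted lines at the 2-fold threshold. The medians run from -0.28 for the other MMPs to 0.19 for the membrane ADAM sheddases, and Mmp3, at -1.02 but below 5 FPKM in both libraries, is the 1 point past a dotted line.

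Fewer cells of a type cannot be told apart from less RNA per cell, and markers of other cells are given here beside the chemoreceptor genes, whose 95th percentiles were 4.39 and 4.79 FPKM. The median marker of mural cells (3.43 and 2.08 FPKM), microglia and macrophages (2.12 and 1.96 FPKM) and fibroblasts (2.32 and 1.84 FPKM) was below these. So was that of astrocytes (3.05 and 3.40 FPKM) and of neurons (2.55 and 2.35 FPKM). The median neutrophil marker was above the percentile in GFP, at 5.62 FPKM, and below it in NeuroD1, at 4.25 FPKM. Neutrophils store Mmp9 in granules, and the 10 neutrophil markers summed to 73.5 FPKM in GFP and 77.6 FPKM in NeuroD1, with 5 above 0 and 5 below in log2 difference. They were led by the granule protein Ngp, at 19.3 and 21.8 FPKM, and the calcium-binding S100a9, at 10.4 and 20.6 FPKM. Named after their values were seen, Elane, at 11.96 and 1.56 FPKM, and S100a8, at 7.83 and 2.96 FPKM, were 2-fold lower, and Retnlg, at 3.72 and 10.96 FPKM, without recovered reads, was 2-fold higher. Of the 7 neutrophil markers with at least 20 reads, 0 had an interval above 1 and 1 below. The latter was Elane, from 26 and 3 reads (ratio 0.131, interval 0.0253 to 0.426). S100a9 was within counting error (interval 0.931 to 4.42), as was S100a8 (0.0887 to 1.25). The part of neutrophil RNA in the Mmp9 difference was not tested. Mural cell markers, of cells that express Timp3, summed to 35.2 and 30.9 FPKM with 3 of 10 above 0, led by Acta2 at 7.63 and 10.9 FPKM and Myh11 at 5.73 and 4.87 FPKM. Their single interval that excluded 1, named after its values were seen, was that of Kcnj8, from 19 and 3 reads (ratio 0.179, interval 0.0339 to 0.608). Microglia and macrophage markers summed to 44.2 and 42.4 FPKM with 3 of 12 above 0, led by Tyrobp at 11.5 and 17.7 FPKM and Aif1 at 6.50 and 6.36 FPKM. Fibroblast markers, of cells that express Mmp2 and Timp2, came to 21.5 and 18.5 FPKM with 0 of 8 above 0, led by Col1a1 at 6.21 and 5.47 FPKM and Pdgfra at 3.57 and 3.22 FPKM. Astrocyte markers (Gfap at 5.15 and 3.40 FPKM, Gja1 at 4.02 and 3.65 FPKM) came to 22.1 and 20.2 FPKM with 3 of 7 above 0. Neuron markers (Rbfox3 at 26.8 and 31.0 FPKM, Tubb3 at 8.97 and 12.4 FPKM) came to 46.8 and 56.3 FPKM with 5 of 7 above 0. Intervals that excluded 1, of markers named after their values were seen, were below it for 1 astrocyte marker (Aldh1l1), above it for 1 neuron marker (Slc17a7) and found for 0 fibroblast markers. Since 97.7% of chemoreceptor genes in GFP and 96.0% in NeuroD1 were also above 0, a value above 0 does not show that a cell type was present. Their part in the values of the matrix genes was not tested.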

How the data were processed

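Expression was measured in 2 libraries, 1 per group, each mapped by the treatment in its labels. The authors deposited 1 table of FPKM values for 53465 genes. Per the submitters' processing notes, Bowtie2 2.3.5.1, featureCounts 1.6.3, DESeq and the GRCm38 build were used. The sources used here do not say how strand, repeated molecules or reads with several matches were handled. FPKM divides by exon length, whereas the 3' protocol gives reads near transcript ends, which lowers long genes against short ones.

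FPKM times merged exon length in GENCODE M21 was a whole multiple of 1 step per library (452.7 in GFP, 512.8 in NeuroD1) for 51160 genes (95.7%), within 0.02 reads. From these reads, each FPKM ratio was given an exact 95% interval (Clopper-Pearson). Reads were not shown to be separate molecules, so intervals cover counting error only. Scaling was kept as deposited. Widened intervals multiply the log distance to each bound by the square root of the variance ratio between the libraries, taken from the median over genes. The steps were tested on data simulated for these 51160 genes, which says nothing about genes whose reads were not recovered.

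Members and lists were chosen with earlier results of these data known. All 9 members are named, and of each related list the 2 genes with the highest mean FPKM, the 2 with the largest difference among those with at least 20 reads, and any past the 2-fold threshold. Of each marker list, the 2 with the highest mean FPKM are named. The values of some further genes are not reported here. Alternatives were other pseudocounts, filters, scalings and interval widths. Protein sequences were planned, and coding stretches of the transcript with the longest coding sequence were used in their place. Tools were matplotlib 3.10.9, pandas 2.3.3, scipy 1.17.1 and numpy 2.4.6 under Python 3.11.15.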

Additional observations from a re-analysis of the deposited data

How the results depend on the processing

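No paired analysis was possible because GFP and NeuroD1 are 1 library each. For the same reason none could be left out. All 9 differences stayed within their counting intervals under 6 settings of pseudocount, scaling and background. Mmp14 changed sign under 2 of them and Adamts9 under 1, and the other 7 under 0. Mmp9 ranged from -1.30 to -0.49 and Adamts1 from -0.96 to -0.51. The count of members 2-fold lower, 0, was 1 (Mmp9) with a pseudocount of 0.1 or the same sum of FPKM, a scaling that moves the median of protein-coding genes by -0.18. The member median of -0.27 was -0.15 with a pseudocount of 5 and -0.47 with the same sum of FPKM. Members with an interval below 1 numbered 2. There was 1 with the widening by the mean variance ratio, which was chosen after seeing the data, and there were 3 (Timp3 added) when scaled by the sum of reads. The related lists had 1 gene lower, Mmp3, with no filter. Over all genes, 1887 were 2-fold higher and 2295 lower. A pseudocount of 5 gave 1061 and 1387, and no filter gave 4343 and 6195. The counts were 237 and 164 at 5 FPKM in both, 214 and 211 at 20 FPKM, and 304 and 394 with at least 20 reads. Of protein-coding genes, 208 were higher and 212 lower. A pseudocount of 5 gave 43 and 49, the same sum 118 and 414, and no filter gave 543 and 795. The counts were 25 and 8 at 5 FPKM in both, and 13 and 5 at 20 FPKM. The lower count was 320 with a pseudocount of 0.1 and the higher count 136 with at least 20 reads. Protein-coding genes with an interval above and below 1, 875 and 920, were 320 and 272 when widened by the median variance ratio, 221 and 171 by the mean, and 380 and 1834 when scaled by the sum of reads. Below 1 there were 594 with at least 50 reads. Filters change such counts by the genes they admit. Of other changes the cause was not tested. Depth limits Timp1 most, with 2 and 5 reads.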
